A study of Mus musculus with 8 samples.

Results

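The genes described here are 10 well-known targets of the transcription factor p53, followed in whisker follicles of mice given the compound E7386 or vehicle. They are Cdkn1a, Ccng1, Mdm2, Bax, Bbc3, Trp53inp1, Eda2r, Sesn2, Phlda3 and Zmat3, chosen as a named list and matched to the arrays through RefSeq accessions. All 10 have a probe on the array, 13 probes of the 55681 for mouse transcripts, and 9 of the genes were measured well enough to be among the 25353 genes tested. Whisker follicle RNA came from 8 samples, all from female ApcMin/+ mice, so that vehicle and drug groups alike carry an Apc allele with a truncating mutation, in all cells. Vehicle was given in 4 samples, also from an age of 8 weeks and with collection 6 h after the final dose. E7386 was given in the other 4, orally at 30 mg/kg per dose with 2 doses daily, in a weekly scheme of 5 treated and 2 untreated days that ran 4 times from an age of 8 weeks, with collection 6 h after the final dose. E7386 is known as an oral compound that keeps beta-catenin from binding CBP, a coactivator of its target genes. Whether a group's samples are from different animals is not given in the labels, and the tests therefore use the spread between samples, which may be technical.

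p53 is a transcription factor that cells keep scarce, because the ubiquitin ligase Mdm2 binds it and marks it for degradation. Damage to DNA and other stresses free p53, which then switches on genes that stop the cell cycle (Cdkn1a), feed back on p53 itself (Mdm2, Ccng1), start cell death (Bax, Bbc3) or handle metabolic stress (Sesn2). In hair follicles p53 is known for the cell death and hair loss that follow chemotherapy. Several of these genes also have other known inducers, so a change in 1 of them is not by itself a readout of p53.

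Promoter windows are shown first for the members whose window holds the consensus decamer of p53, a pattern of 10 bases that reads the same on both strands. RefSeq windows of GRCm38.p6, from 250 bases before to 50 bases after a transcript start, were at hand for 8 of the 10 members, 11 windows in all, and not for Trp53inp1 and Zmat3. Exact matches to the consensus decamer lay in 4 of the 11 windows, those of Cdkn1a, Ccng1, Mdm2 and Bax, against 8.36% of all 32851 windows of that length. The matches are in capitals below, each with 20 bases on either side, 5′ to 3′ on the strand of the gene.
Cdkn1a, chr17:29090886-29090957, plus strand: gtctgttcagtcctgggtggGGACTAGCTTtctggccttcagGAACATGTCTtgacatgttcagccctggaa
Ccng1, chr11:40755442-40755491, minus strand: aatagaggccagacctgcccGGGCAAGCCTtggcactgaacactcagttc
Mdm2, chr10:117710915-117710964, minus strand: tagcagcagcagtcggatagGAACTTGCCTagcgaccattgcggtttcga
Bax, chr7:45467070-45467119, minus strand: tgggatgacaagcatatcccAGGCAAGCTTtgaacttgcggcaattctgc
Only the Cdkn1a window shown, among those of the members, holds a pair of exact matches at most 13 bases apart, with 12 bases between them. That arrangement was found in 0.0731% of all windows. In the Cdkn1a sequence shown, the 10 bases right after the second match differ from the pattern at their first base only. Exact matching left them unmarked, so other pairs than the marked one can be read there. The window of another Cdkn1a start, chr17:29093519-29093818, holds no match. A match is a description of letters and not a measured binding site, and nothing about p53 binding was measured here.

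All values below are normalised log2 signals, the log2 of the processed signal minus the 75th percentile of that array, and changes are E7386 minus vehicle. They serve to compare arrays for 1 gene and not genes with each other, since probes differ in brightness. All 8 arrays lie on 1 slide with 1 scan, vehicle in the first row and E7386 in the second, so row and treatment cannot be told apart. Correlations between arrays of a group were 0.985 to 0.994. The number of arrays limits the precision.

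Trp53inp1 was the only member that passed the test, and it rose. Trp53inp1 encodes a stress-induced protein that takes part in cell death with p53 and in autophagy. Vehicle arrays read 2.62, 2.50, 2.41 and 2.40, and E7386 arrays read 2.96, 3.08, 3.10 and 3.22. Every E7386 array lay above every vehicle array. The mean went from 2.48 ± 0.10 (SD, n = 4) to 3.09 ± 0.11, a change of 0.61 on the log2 scale or 1.52-fold (SE 0.087, 95% interval 0.41 to 0.80, limma adjusted p = 0.021). Among all genes tested the same threshold was passed by 1.13%, with 0.781% higher, so 1 call among 9 members has to be read against that share. The members were chosen with earlier results of these data known, which limits that comparison. These are bulk samples, in which more cells that express the gene and more RNA per cell cannot be told apart.

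The other probe of Trp53inp1, for the same transcript accession, gave the same picture at a dimmer signal. Its vehicle arrays read -1.03, -1.11, -0.84 and -0.99, and its E7386 arrays -0.56, -0.60, -0.37 and -0.42. There was again no overlap between the groups, and its means differed by 0.51. Groups without overlap and higher with E7386 made up 5.13% of all genes tested.

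The call of Trp53inp1 is close to the threshold. When arrays were left out in turn the call held 2 times of 8, without vehicle replicate 1 and without E7386 replicate 1, and was lost without each of the other 6, with changes from 0.56 to 0.65 and adjusted p from 0.0306 to 0.087. It was also lost when arrays were scaled by their median (0.53, adjusted p = 0.0514) and without the 3 arrays of lowest muscle signal (0.72, adjusted p = 0.0989). With the replicate number as a block in the limma fit the call was lost too (0.61, SE 0.10, adjusted p = 0.123).

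**Figure D1:**
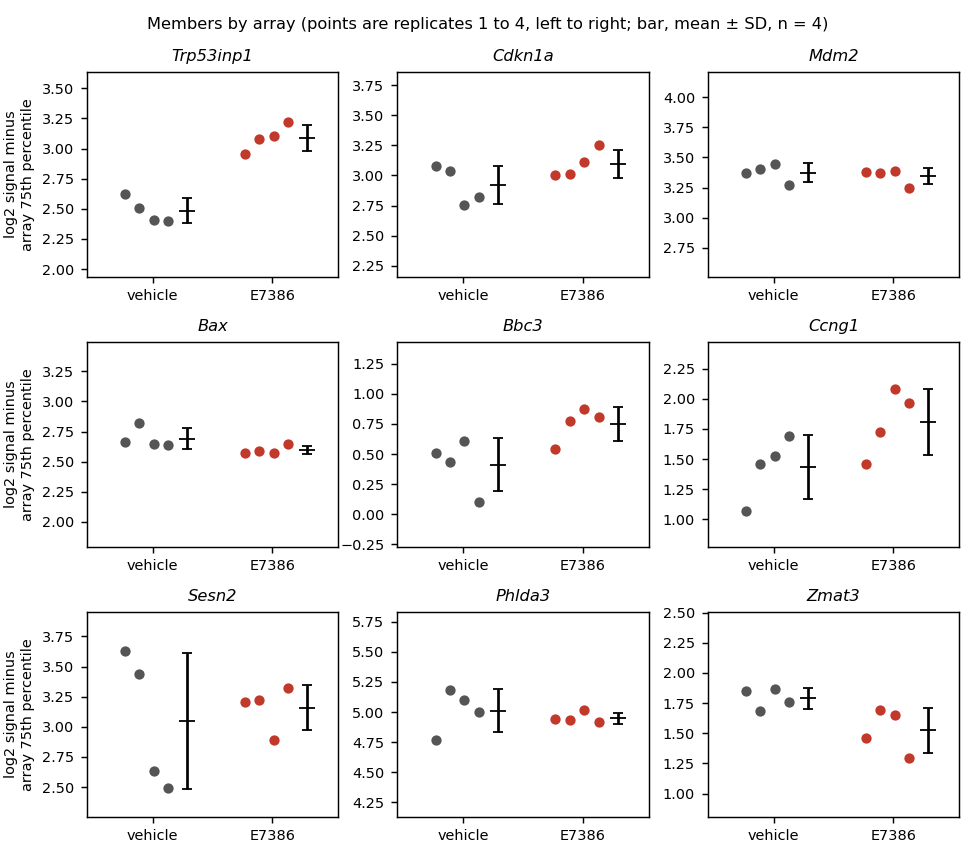
Normalised log2 signal (y axis, each panel spanning the same range of log2 units) of the 9 measured members on the 4 vehicle arrays (grey) and the 4 E7386 arrays (red), with the mean and SD beside each group. The groups separate for Trp53inp1, at 2.40 to 2.62 against 2.96 to 3.22, and overlap in each of the other 8 panels.

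Among the genes of arrest and feedback, Cdkn1a and Mdm2 differed little between the groups. Cdkn1a encodes p21, an inhibitor of cyclin-dependent kinases that halts the cycle and is a widely used readout of p53 activity. Its vehicle arrays read 3.08, 3.03, 2.76 and 2.82 and its E7386 arrays 3.01, 3.01, 3.11 and 3.25, so the groups overlapped. The change was 0.17 (SE 0.10, 95% interval -0.06 to 0.41, limma adjusted p = 0.478), so that the interval leaves room for a rise of up to 0.41. Its other probe, near the detection limit and well above background on 7 of 8 arrays, had means that differed by -0.32, with SDs of 0.41 and 0.57.

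Mdm2, the ubiquitin ligase that p53 induces against itself, had the smallest change of the members. Its vehicle arrays read 3.37, 3.40, 3.45 and 3.27 and its E7386 arrays 3.38, 3.37, 3.38 and 3.25. The change was -0.028 (SE 0.073, 95% interval -0.20 to 0.14, limma adjusted p = 0.901). The SDs within the groups were small, 0.076 and 0.066.

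Ccng1 encodes cyclin G1, which brings a phosphatase to Mdm2. Its vehicle arrays read 1.07, 1.46, 1.53 and 1.69, and its E7386 arrays 1.46, 1.72, 2.08 and 1.97. The groups met at 1.46, and the change of 0.37 did not pass (SE 0.17, 95% interval -0.03 to 0.77, limma adjusted p = 0.372). The spread within the groups moved with skeletal muscle. The mean of 10 muscle markers, all 10 well above background on every array, was 1.16, 3.55, 4.05 and 4.26 on vehicle arrays and 1.41, 2.22, 4.26 and 4.37 on E7386 arrays. Ccng1 was lowest in each group on the array with the least muscle signal. With the muscle mean as a covariate its change was 0.41 (SE 0.068), and it passed (limma adjusted p = 0.0359). That is the only one of 22 alternatives in which Ccng1 passed, and without the 3 arrays of lowest muscle signal it was at 0.47 without a call (adjusted p = 0.211).

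**Figure D2:**
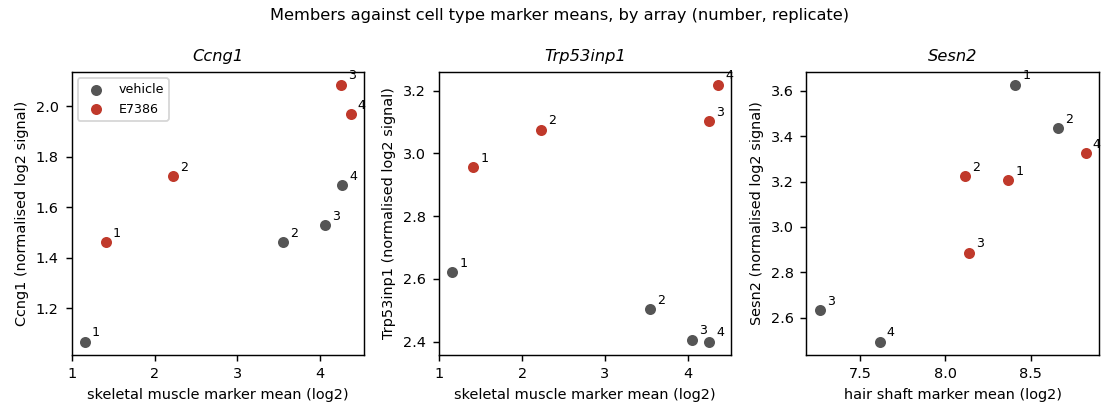
Signal of Ccng1, Trp53inp1 and Sesn2 (y axes, normalised log2) on each array against the mean of the muscle or hair shaft markers on that array (x axes, log2), vehicle in grey and E7386 in red, numbered by replicate. Ccng1 is lowest at the arrays of least muscle, vehicle replicate 1 at 1.16 and E7386 replicate 1 at 1.41, while Trp53inp1 is higher with E7386 at low and at high muscle signal.

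Of the genes of cell death, Bax and Bbc3 went apart in sign and neither passed. Bax encodes the protein that makes pores in the outer mitochondrial membrane. It read 2.66, 2.82, 2.64 and 2.64 with vehicle and 2.58, 2.59, 2.58 and 2.65 with E7386, a change of -0.095 (SE 0.071, 95% interval -0.26 to 0.07, limma adjusted p = 0.584). Bbc3 encodes PUMA, a protein of the BH3-only class that activates Bax. It read 0.51, 0.43, 0.61 and 0.10 with vehicle and 0.54, 0.77, 0.87 and 0.81 with E7386.

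The groups of Bbc3 overlapped through E7386 replicate 1, which lay below vehicle replicate 3. Its change was 0.34 (SE 0.13, 95% interval 0.05 to 0.63, limma adjusted p = 0.268), so it did not pass. An unadjusted p under 0.05 was reached by 3 of the 9 measured members, 2 higher (Trp53inp1 and Bbc3) and 1 lower (Zmat3). Over all genes tested that share was 15.0%, with 7.88% higher and 7.13% lower. Vehicle replicate 4 was the lowest array for Bbc3, and without it the change was 0.24 (adjusted p = 0.331).

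Eda2r, a receptor of the tumour necrosis factor family for a form of ectodysplasin, could not be measured. Its pair of probes was not well above background on any of the 8 arrays, so no change is given. It is the 1 member of 10 that did not pass the filter on dim signals.

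Among the members that act on metabolism, growth signals and RNA, none passed. Sesn2 encodes sestrin 2, which restrains the kinase complex mTORC1 and is also a target of the stress factor ATF4. Its vehicle arrays spread widely, at 3.63, 3.43, 2.63 and 2.50, with E7386 arrays between them at 3.21, 3.22, 2.89 and 3.32. The change was 0.11 with a wide 95% interval of -0.49 to 0.72 (SE 0.26, limma adjusted p = 0.891).

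The vehicle arrays of low Sesn2 were those of low hair shaft signal. The mean of 5 hair shaft keratins was 8.41, 8.66, 7.26 and 7.62 on vehicle arrays and 8.37, 8.11, 8.14 and 8.82 on E7386 arrays. With that mean as a covariate the difference in Sesn2 was -0.15 (SE 0.16, adjusted p = 0.674), so its sign turned, as it did without vehicle replicate 3 (-0.025) or vehicle replicate 4 (-0.071). No direction can be given for this gene.

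Phlda3, which encodes a repressor of the kinase Akt, read 4.77, 5.18, 5.10 and 5.00 with vehicle and 4.94, 4.93, 5.02 and 4.91 with E7386. All E7386 arrays lay inside the vehicle range, and the change was -0.062 (SE 0.099, 95% interval -0.29 to 0.16, limma adjusted p = 0.823). Zmat3 encodes a zinc finger protein that binds RNA and is a p53 target in many mouse tissues. It read 1.85, 1.68, 1.87 and 1.76 with vehicle and 1.46, 1.70, 1.65 and 1.29 with E7386. It is the member with the lowest value of the change, -0.27 (SE 0.11, 95% interval -0.51 to -0.02, limma adjusted p = 0.293), opposite in sign to Trp53inp1 and short of the threshold. E7386 replicate 2 lay just above vehicle replicate 2, so the groups overlapped.

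**Figure D3:**
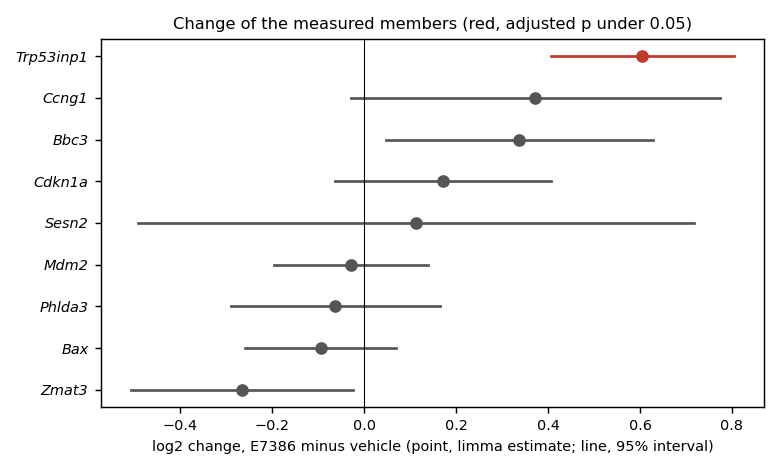
Change of each measured member (x axis, log2, E7386 minus vehicle) with its 95% interval from the limma fit of 4 against 4 arrays. The interval of Trp53inp1 runs from 0.41 to 0.80, and the intervals of Cdkn1a, Mdm2, Bax, Ccng1, Sesn2 and Phlda3 hold 0.

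Of the 9 measured members, 5 had a higher and 4 a lower mean with E7386. Their median change was 0.11, beside 0.017 over all genes tested. Thus the list had 1 call, 1 gene without overlap between the groups (10.4% of all genes had none, 5.13% higher and 5.24% lower) and changes of both signs.

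p53 itself and the proteins that control it were described by a list of 16 genes, all past the filter on dim signals. None passed the limma test, 1 had an unadjusted p under 0.05 (against 15.0% of all genes tested), and the median change was 0.057. That gene was Cdkn2a, whose locus encodes p16 and the Mdm2 inhibitor ARF, at -1.92, -1.66, -2.23 and -2.10 with vehicle and -1.31, -1.47, -1.09 and -0.46 with E7386. Its groups did not overlap, and groups without overlap and higher with E7386 made up 5.13% of all genes tested. The spread of Cdkn2a with E7386 was wide, and the change of 0.90 had an adjusted p of 0.118 in limma (SE 0.23). Which product of the locus the probe reads was not examined, and the other Cdkn2a probe stayed below detection on all 8 arrays. Ppm1d, a phosphatase that p53 induces and that shuts the response off, was at 0.19 (SE 0.087) and Kat5, an acetyltransferase that acts on p53, at 0.14 (SE 0.081). Their adjusted p were 0.354 and 0.475. No change is given for Chek1, a kinase of the DNA damage checkpoint, which was detected on 4 vehicle arrays and 1 E7386 array and so passed the filter on dim signals through the vehicle group. Chek1 is still counted among the 16 genes, enters their median and is drawn with the related lists below. Trp53 itself, which encodes p53, was at -0.15 (adjusted p = 0.526).

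Of 56 further measured targets of p53, in 5 lists by role, 0 passed in limma, with 7 higher and 6 lower at an unadjusted p under 0.05 (13 in all, against 15.0% of all genes tested). Their median change was 0.0016, and 28 had a higher and 28 a lower mean. Groups without overlap were seen for 10 of them, 7 higher and 3 lower, against 10.4% of all genes, 5.13% higher and 5.24% lower. These targets lay on both sides of 0.

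In the arrest list Rprm, which encodes the cell cycle inhibitor reprimo, was at -0.77 (SE 0.17, adjusted p = 0.0837) and Ccng2, the relative of Ccng1, at 0.60 (SE 0.14, adjusted p = 0.109), both without overlap and neither past the threshold. Btg2, an antiproliferative gene, was at 0.21 and Gtse1, which restrains p53 in G2, at -0.10. In the death list Fas, a death receptor, came closest. It read -1.12, -0.73, -0.67 and -0.80 with vehicle and -0.25, -0.34, 0.06 and 0.12 with E7386, a change of 0.73 (SE 0.14, adjusted p = 0.0609), and it passed in 3 of 22 alternatives. Pmaip1, which encodes the BH3-only protein NOXA and is a classic p53 target beside Bbc3, had the opposite sign at -0.38 (SE 0.13, adjusted p = 0.224). Trp53i11 was at -0.24 and Bid at -0.20.

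In the repair list Xpc, which finds damaged bases, was at 0.42 (SE 0.11, adjusted p = 0.123) and Ercc5, a nuclease of excision repair, at 0.28 (SE 0.074, adjusted p = 0.137), both without overlap. Rrm2b, the p53-induced subunit of ribonucleotide reductase, was at -0.21 and Ddb2 at 0.24. In the metabolic list Ulk1, the kinase that starts autophagy, was at 0.37 (SE 0.081, adjusted p = 0.085) and Sesn1, the relative of Sesn2, at 0.41 (SE 0.11, adjusted p = 0.139). Tigar, which lowers glycolytic flux, was at -0.24 and Dcxr at -0.36. In the list of other roles Abhd4 was at 0.21 (adjusted p = 0.217), Rps27l at -0.16, Rap2b at -0.11 and Ltbr at 0.055. With a trended, robust variance Fas and Ulk1 passed and the rest of these 5 lists did not. With the muscle covariate Fas, Xpc, Dcxr and Lpin1 passed.

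Among 11 measured relatives of Bax and Bbc3 in the BCL-2 family, Bmf passed and rose. Over all genes tested 1.13% passed, with 0.781% higher, so 1 call among 11 has to be read against that share. This list, too, was chosen with earlier results of these data known. An unadjusted p under 0.05 in limma was reached by 5 of the 11, 4 higher and 1 lower, against 15.0% of all genes tested. The lower one was Bak1 at -0.24 (SE 0.10, limma adjusted p = 0.331), with groups that overlapped. Bmf encodes a BH3-only protein that sets off cell death when cells lose their anchorage. It read 0.17, 0.33, 0.33 and -0.05 with vehicle and 0.86, 1.00, 1.00 and 1.07 with E7386. The groups lay far apart relative to their spread, from 0.19 ± 0.18 (SD, n = 4) to 0.98 ± 0.089, a change of 0.79 or 1.73-fold (SE 0.10, limma adjusted p = 0.0156). Bmf was called in 16 of 22 alternatives. The call ended without vehicle replicate 1 (adjusted p = 0.0505), E7386 replicate 2 (0.0508), E7386 replicate 3 (0.0681) or E7386 replicate 4 (0.0621). It also ended without the 3 arrays of lowest muscle signal (0.146) and with the replicate number as a block (0.0937).

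BH3-only genes lay on both sides of 0. Without a call, Hrk was at 0.82 (SE 0.27, adjusted p = 0.213) and Bcl2l11, which encodes BIM, at 0.40 (SE 0.15, adjusted p = 0.27). Both read dim, with vehicle means of -4.04 and -4.31. Over 22 alternatives the change ran from 0.42 to 1.02 for Hrk and from 0.22 to 0.50 for Bcl2l11. Pmaip1 and Bid, above, were lower, as was Bad at -0.13 (SE 0.064, adjusted p = 0.389), with no overlap. Bak1, Bad and, below, Zmat5 are named after their values were seen. Mcl1, which protects from cell death, was at 0.17 (SE 0.064, adjusted p = 0.274), and its other probe gave 0.017. The median change of the 11 genes was 0.17.

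Among 16 measured relatives of the members none passed in limma, and 5 had an unadjusted p under 0.05, against 15.0% of all genes tested. Of these, 4 were higher and 1 lower. The higher ones are Ccng2 and Sesn1, above, Cdkn1b, which encodes the p21 relative p27, at 0.28 (SE 0.080, adjusted p = 0.167), and Zmat1 at 0.35 (SE 0.13, adjusted p = 0.251). The lower one is Zmat5 at -0.19 (SE 0.074, adjusted p = 0.294), with no overlap. Of 13 measured targets of ATF4, a list that holds Sesn2, 0 passed in limma. An unadjusted p under 0.05 in limma was reached by 2 of the 13, against 15.0% of all genes tested. Trib3, a pseudokinase, was at 1.11 (SE 0.28, adjusted p = 0.119). It passed in 2 of 22 alternatives, with the muscle covariate and without the 3 arrays of lowest muscle signal, with a smallest adjusted p of 0.0365. Ppp1r15a was at 0.41 (SE 0.16), Atf3 at 0.34 (SE 0.20) and Psat1 at -0.19 (SE 0.11). The median of that list was 0.14.

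**Figure D4:**
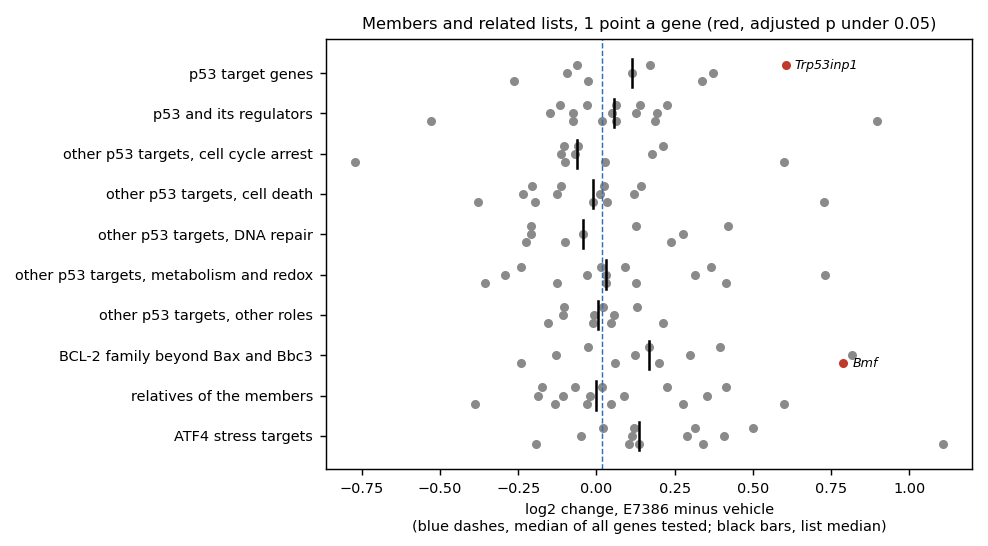
Change of each measured gene (x axis, log2, E7386 minus vehicle) in the 10 p53 targets and in 9 related lists, with a black bar at the list median and a dashed line at the median of all genes tested, 0.017. Trp53inp1 at 0.61 and Bmf at 0.79 are the genes past the threshold (red), and the points of every list lie on both sides of 0.

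The cell make-up of the samples was followed with markers of 12 cell types. Basal and outer root sheath markers, which define the labelled tissue, were steady at 7.18 to 7.20 with vehicle and 7.05 to 7.21 with E7386. Muscle markers ranged over 1.16 to 4.26 and 1.41 to 4.37 and so varied within both groups. The array means of the dermal papilla markers did not overlap, at -1.18 to -0.86 with vehicle and -2.23 to -1.20 with E7386. The gap between the groups was narrow, from -1.18 to -1.20. Taken singly, 0 of the 6 markers were without overlap. Of the 6 markers, 5 were well above background on all 8 arrays and 0 passed the threshold. Over E7386 replicates 1 to 4 the dermal papilla mean fell at each step (-1.20, -1.58, -1.70 and -2.23). Trp53inp1 rose at each of these steps. Over vehicle replicates 1 to 4 Trp53inp1 fell at each step, and that mean was -0.86, -1.18, -1.04 and -0.95, highest on replicate 1. Sebaceous markers were at -0.77 to -0.42 with vehicle and -0.44 to -0.11 with E7386. On E7386 replicates 1 to 4 their mean rose at each step (-0.44, -0.40, -0.22 and -0.11), as Trp53inp1 did. On vehicle replicates 1 to 4 it was -0.65, -0.77, -0.60 and -0.42, while Trp53inp1 fell. Of these markers 1 of 6 was called, against 1.13% of all genes tested. It was Dgat2l6, a lipid enzyme, which rose by 0.78 (limma adjusted p = 0.0289). Leukocyte markers were at -0.98 to -0.46 and -0.97 to -0.54. The muscle mean also rose at each step over E7386 replicates 1 to 4 (1.41, 2.22, 4.26 and 4.37). It rose over vehicle replicates 1 to 4 too (1.16, 3.55, 4.05 and 4.26), where Trp53inp1 fell. Steps that go with Trp53inp1 on the E7386 arrays are thus not particular to dermal papilla and sebaceous markers. With the muscle mean as a covariate Trp53inp1 kept its change and its call (0.61, adjusted p = 0.0233). The part of dermal papilla and sebaceous cells in the change of Trp53inp1 was not tested.

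Of 16132 other genes with a symbol, Wdr45, Sav1 and Gpr19 were most like Trp53inp1 over the 8 arrays, with Pearson r of 0.984, 0.984 and 0.981 and Spearman rho of 0.952, 0.905 and 0.976. Wdr45 encodes a protein of autophagy, and Sav1 a scaffold of the Hippo pathway. They changed by 0.51, 0.75 and 0.37. These correlations span both groups and were picked as the highest of many, so they describe these arrays only.

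**Figure D5:**
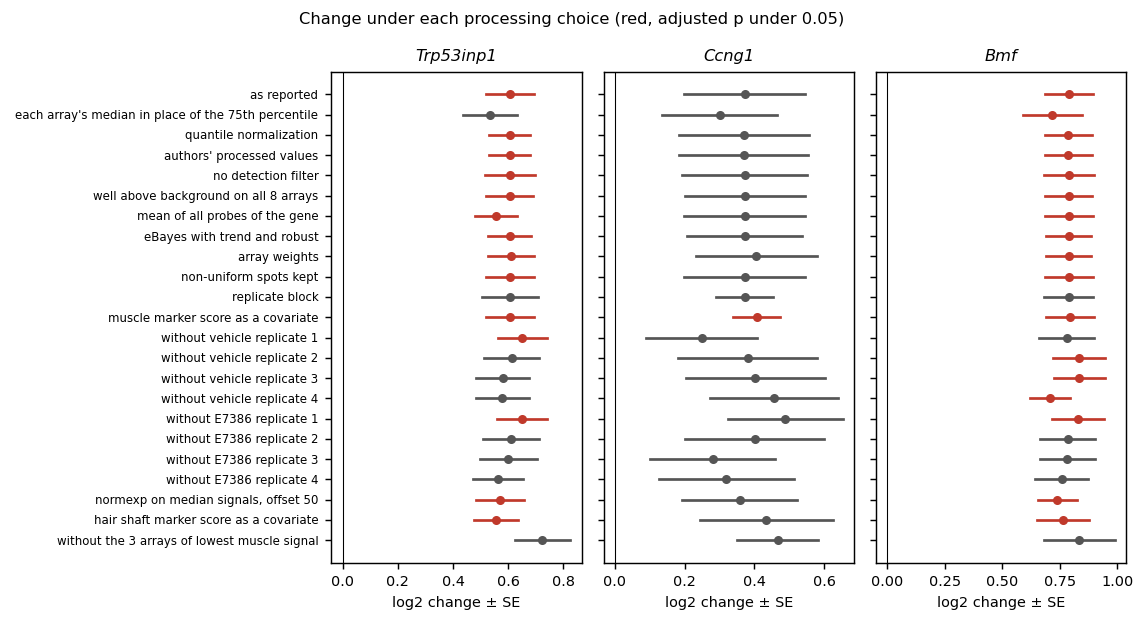
Change (x axes, log2, ± SE) of Trp53inp1, Ccng1 and Bmf as reported and under 22 other processing choices, red where the adjusted p was under 0.05. Trp53inp1 stays between 0.53 and 0.72 and Bmf between 0.71 and 0.84, while Ccng1 spans 0.25 to 0.49 and is red with the muscle covariate only.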

How the data were processed

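Total RNA, 50 ng a sample, was labelled with Cy3 for 1-colour Agilent arrays, per the labels' protocols. Per the file headers the deposited intensity values come from Agilent's Feature Extraction 11.5.1.1 (the submitters' processing notes give 11), whose processed signal has the background removed. The authors' deposited value table holds log2 values of the same arrays, quantile normalised as its columns share the same sorted values (median 5.31), not centred per probe, and was used as an alternative.

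Spots of a probe were averaged on the log2 scale, non-uniform spots (2 to 14 an array) were set to missing, and each array was scaled by its 75th percentile (459.4 to 656.2). Symbols come from RefSeq accessions of GRCm38.p6 for 27509 of 55681 probes. Each gene is represented by its brightest probe, kept if well above background on at least 3 of 4 arrays of a group, which left 25353 genes, 16133 with a symbol. Genes were tested with limma 3.58.1 (lmFit, eBayes) in R 4.3.3 and Benjamini-Hochberg adjustment, with a threshold of 0.05. The script was tested on simulated data. Of each related list, genes past the threshold and up to 4 of smallest p are named. Members and lists were chosen with earlier results of these data known. Normexp was run on median signals, since the files used here hold no mean signal of spots. That fit, the hair shaft covariate, leaving out the 3 arrays of lowest muscle signal and all alternatives for related lists were added after seeing the data.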

Additional observations from a re-analysis of the deposited data

Results flagged for a closer look

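In 9 of the 110 groups of 4 arrays that were looked at, the highest or lowest array stood apart from the rest by a gap over Dixon's 95% critical value, and chance alone gives this in about 1 in 20 groups. Mdm2 was lowest on E7386 replicate 4 at 3.25, next to 3.37. Bax was highest on vehicle replicate 2 at 2.82, next to 2.66, and on E7386 replicate 4 at 2.65, next to 2.59. Kat5 was lowest on vehicle replicate 3 at 2.77, and Ccng2 was lowest on E7386 replicate 4 at -1.97. Abhd4 was highest on E7386 replicate 3 at 5.41, and Mcl1 was lowest on E7386 replicate 1 at 3.97. The mean of basal and outer root sheath markers was lowest on E7386 replicate 1 at 7.05. The mean of adipocyte markers was lowest on vehicle replicate 1 at -2.48, next to -1.10. None of these groups belongs to Trp53inp1 or Bmf.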

How the results depend on the processing

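Trp53inp1 was higher in all 22 alternatives, by 0.53 to 0.72, and was called in 13 of them. It was the 1 member called, against 0 with array medians, 0 with the replicate block, 0 without the 3 arrays of lowest muscle signal, 2 (with Ccng1) with the muscle covariate, and 0 to 1 when 1 array was left out. Of all genes 287 passed, against 155 without a detection filter, 48 with the replicate block, 566 with the muscle covariate, 47 without the 3 arrays of lowest muscle signal, and 84 to 251 when 1 array was left out. Rises were 69% of the calls and 55.7% with array medians. Of the related lists 1 gene passed, against 3 with a trended, robust variance, 0 with the replicate block, 6 with the muscle covariate, 2 with normexp, 2 without the 3 arrays of lowest muscle signal, and 0 to 2 when 1 array was left out. The replicate number is shared between groups, and the deviations of same-numbered arrays correlated with r of 0.49, -0.17, 0.29 and 0.18. Whether the numbers pair the samples cannot be told from these values, which have no reference to be read against. With the replicate block the adjusted p of Trp53inp1 was 0.123 and that of Bmf 0.0937. Signs turned for Ltbr with array medians (-0.016), for Cdkn1a with its probes averaged (-0.075), for Mdm2 without E7386 replicate 4 (leave-one-out range -0.063 to 0.0043), and for Sesn2 without vehicle replicate 3 (-0.025), without vehicle replicate 4 (-0.071, in a leave-one-out range up to 0.31) and with the hair shaft covariate (-0.15). For all of these the cause was not tested. Eda2r was below the limit that signal over background sets.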
